A study of Homo sapiens with 6 samples.

Results

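The 10 genes described here belong to the BCL2 family, which sets whether mitochondria release the signals that start apoptosis. They are the anti-apoptotic genes BCL2A1, BCL2L1, MCL1 and BCL2, the BH3-only genes BCL2L11, BBC3, PMAIP1 and BID, and the effectors BAX and BAK1. Each was found by its symbol in the deposited table, where the row with the highest mean over the 6 libraries would have been kept had a symbol stood in several rows; each symbol stood in 1 row. The 10 genes are 10 of the 74852 genes listed, and all 10 passed the filter on low values. The group was chosen by its known roles in apoptosis and by the low normalized counts of BCL2A1 in si-NEK2 cells, so that the change of BCL2A1 is given as a description with no test.

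Anti-apoptotic members of the family hold the effectors BAX and BAK1 in check at the outer mitochondrial membrane. BH3-only proteins bind the anti-apoptotic members or engage the effectors directly, and freed effectors form pores through which cytochrome c leaves the mitochondria. Cytochrome c then assembles with APAF1 into the apoptosome, which activates caspases.

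The cells were MDA-MB-231, a human triple-negative breast cancer (TNBC) cell line with a mesenchymal phenotype. They were transfected 2 times with control siRNAs without a target (si-CTRL, 3 libraries) or with siRNAs against NEK2 (si-NEK2, 3 libraries), and were collected 24 h after the last transfection per the sample records, whereas the methods of the paper give a different time. Both groups thus went through transfection, and each group received 1 pool of siRNAs, so that loss of NEK2 and other effects of the si-NEK2 pool cannot be told apart. NEK2 is a mitotic kinase that separates centrosomes and has been found in the nucleus of cancer cells.

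The libraries held between 52625492 and 87454509 assigned reads, at which 1 read was worth between 0.818 and 1.25 normalized counts. NEK2 itself went from a mean of 3438 ± 229 normalized counts to 344.9 ± 54.4 upon silencing (SD, n = 3 each), of which 10.0% remained. The markers VIM, CD44, AXL and FOSL1 of mesenchymal breast cancer cells had between 21427 and 173162 normalized counts in a library, and ESR1, PGR and CDH1 at most 15.2. The si-CTRL replicate 1 library stood apart from the others along the second principal component of all tested genes, which held 16.2% of the variance, and the results it decides are given without it as well. Values are normalized counts, that is reads of a gene divided by the size factor of the library. Changes are log2 fold changes of si-NEK2 over si-CTRL from limma on log2(value + 1), fitted over the 18717 genes whose mean reached 10, with p-values adjusted over all of them. Genes are called regulated where the p-value before adjustment was up to 0.05 and the groups differed by 1.5-fold or more.

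BCL2A1 had the lowest log2 fold change of the 10 genes and is left out of the counts that follow. Of the other 9 genes, 4 were regulated, with BCL2, BAK1 and BID lower in si-NEK2 cells and BCL2L11 higher. Among all genes tested, 22.5% were regulated, 14.3% lower and 8.23% higher. On the adjusted p alone, with 0.05 as its limit, MCL1 joined the lower genes and BCL2L1 the higher ones. This made 6 of 9 genes, 4 lower and 2 higher, where 43.1% of all genes passed, 21.3% lower and 21.8% higher. The groups did not overlap for 7 of the 9 genes, BBC3 and BAX being the exceptions, where 55% of all genes showed no overlap. The median log2 fold change of the 9 genes was -0.19 and that of all tested genes was 0.01. Genes that passed on the adjusted p alone went both ways among the anti-apoptotic genes (MCL1 and BCL2 lower, BCL2L1 higher) and among the BH3-only genes (BID lower, BCL2L11 higher).

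**Figure D1:**
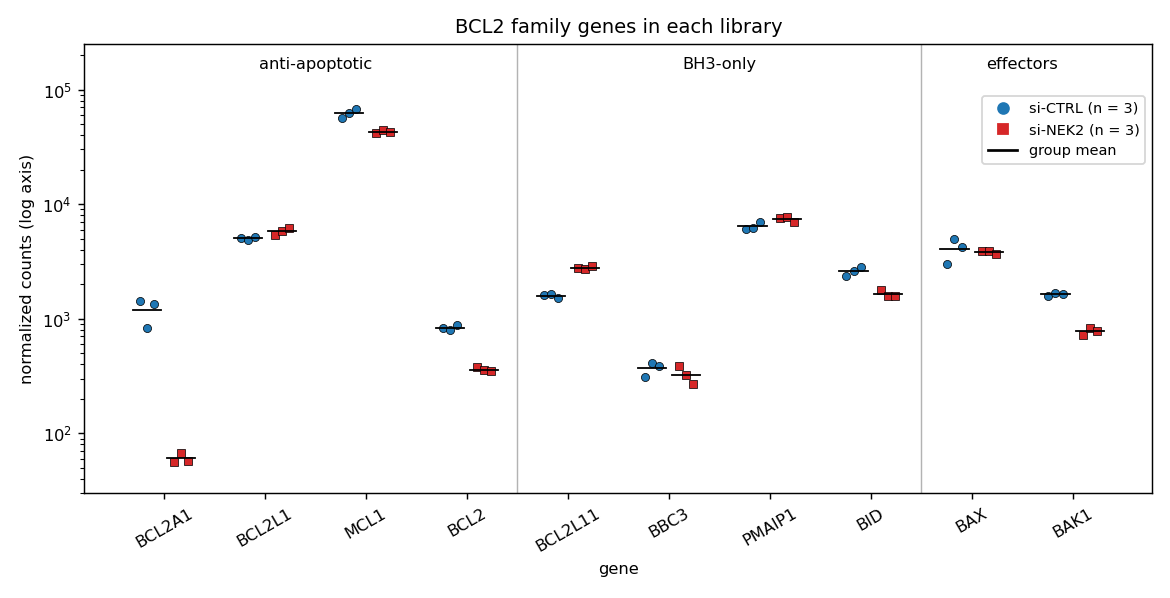
Normalized counts (log axis) of the 10 genes in each library, with si-CTRL as circles, si-NEK2 as squares and the group mean as a line (n = 3 per group). The libraries of the groups lie apart for BCL2A1, MCL1, BCL2, BAK1, BID and BCL2L11 and narrowly for BCL2L1 and PMAIP1, and they overlap for BBC3 and BAX.

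Among the anti-apoptotic genes, BCL2A1 showed the widest gap. BCL2A1 (also called BFL1 or A1) codes for a short-lived protein that binds BH3-only proteins, is best known from leukocytes and is a textbook target of NF-kB. BCL2A1 (GSHG0010642, chromosome 15 from 80253233 to 80263643, hg19) had 1424, 831 and 1356 normalized counts in si-CTRL replicates 1, 2 and 3. In si-NEK2 replicates 1, 2 and 3 it had 56.5, 66.9 and 57.6 normalized counts. The si-NEK2 libraries lay close together and far below each si-CTRL library, among which replicate 2 was lowest. These values rest on 1139, 858 and 1426 reads in si-CTRL and on 69, 74 and 54 reads in si-NEK2 libraries. The mean went from 1203 ± 324 (SD, n = 3) to 60.3 ± 5.71 (SD, n = 3), a log2 fold change of -4.26 (SE, the standard error, 0.20) and the 4th lowest of the 18717 genes tested. Fits that lacked 1 of the libraries gave values between -4.51 and -4.12.

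Since BCL2A1 is a gene of leukocytes, 7 leukocyte markers were examined beside it. CD3E, MS4A1 and SPI1 had at most 4.27 normalized counts in any library, MS4A1 being at 0 in all 6, PTPRC had at most 25.4 and CD79A at most 13.9. ITGAM was lower in si-NEK2 cells (80.4 ± 25.1 against 47.4 ± 2.87, SD, n = 3), as was NCAM1 (23.3 ± 10.1 against 5.99 ± 4.17, SD, n = 3). The means of PTPRC (7.25 against 12.9) and CD79A (3.06 against 5.77) were instead higher in si-NEK2 cells. So were those of SPI1 (0.969 against 2.51) and CD3E (0 against 0.546), and the groups of each of these overlapped. The summed level of the 7 markers was between 86.2 and 139.98 normalized counts in si-CTRL and between 65.1 and 83.5 in si-NEK2 libraries. ITGAM made up most of this sum in each library. This sum was below the level of BCL2A1 alone in each si-CTRL library, above it in si-NEK2 replicates 1 and 3 and below it in si-NEK2 replicate 2. Its part in the change of BCL2A1 was not tested.

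The start of BCL2A1 is shown here because this gene had the largest change of the 10, and that of BCL2L11 because it was the regulated gene that went the other way. The sequences are those of RefSeq (GRCh38.p14), from 250 bases before to 50 bases after the start of the gene, and capitals mark the motifs found. BCL2A1 lies on the minus strand at chr15:79971147-79971446 and BCL2L11 on the plus strand at chr2:111120664-111120963.
BCL2A1: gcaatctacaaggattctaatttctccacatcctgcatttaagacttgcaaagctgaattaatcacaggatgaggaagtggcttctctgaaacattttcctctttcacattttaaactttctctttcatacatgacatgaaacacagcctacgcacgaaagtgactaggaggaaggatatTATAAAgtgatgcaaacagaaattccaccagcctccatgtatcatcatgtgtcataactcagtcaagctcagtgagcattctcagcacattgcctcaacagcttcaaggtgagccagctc
BCL2L11: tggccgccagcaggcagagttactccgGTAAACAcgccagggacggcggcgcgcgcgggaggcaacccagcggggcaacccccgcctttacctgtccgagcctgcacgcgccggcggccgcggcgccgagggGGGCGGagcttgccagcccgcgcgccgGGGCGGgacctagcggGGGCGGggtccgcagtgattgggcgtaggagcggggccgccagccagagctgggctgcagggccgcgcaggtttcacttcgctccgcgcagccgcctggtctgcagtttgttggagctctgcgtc
The motifs were searched on both strands and were chosen after the expression values were known. They were TATAAA, the core of a TATA box, and GGGCGG, a GC box bound by SP1. The others were GTAAACA, bound by FOXO factors, and TGANTCA, bound by AP-1, and the kappaB consensus. No match overlapped another in either sequence printed. The BCL2A1 window has 41% G and C, 2 CpG and a TATAAA that begins 70 bases before the start. The BCL2L11 window has 74.7% G and C, 39 CpG, 3 matches to GGGCGG and a GTAAACA 223 bases before the start. Of the 35116 windows of this length, 11.5% hold TATAAA, 45% GGGCGG, 3.42% GTAAACA, 7.71% TGANTCA and 11.3% the kappaB consensus. Their median is 58.7% G and C and 14 CpG. For the 10 genes the table holds 14 windows of 9 genes. Besides BCL2A1, TATAAA was found in 1 of the windows of BCL2L1, TGANTCA was found in BBC3, and the kappaB consensus was found in none of the 14. GGGCGG was not particular to BCL2L11, as windows of BCL2L1, PMAIP1, BID, BAX and BAK1 also held it. GTAAACA was found in no window but that of BCL2L11. These matches describe the letters of the windows and no binding.

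The genes next to BCL2A1 did not follow it. ST20-AS1, 36037 bases below, had 347.9 ± 44.2 normalized counts in si-CTRL and 304.6 ± 43.8 in si-NEK2 cells (SD, n = 3 each), a log2 fold change of -0.19 (limma adjusted p = 0.315). ZFAND6, 88267 bases above, was higher in si-NEK2 cells by a log2 fold change of 0.47 (SE 0.09, limma adjusted p = 0.0032), less than 1.5-fold.

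The genes whose pattern over the 6 libraries was most like that of BCL2A1 were sought among 12915 genes with a symbol and a mean of at least 50, by the root mean square difference of log2 values centred on the si-CTRL mean. They were ESM1 (0.39), IL24 (0.41), KRTAP2-3 // KRTAP2-4 (0.41), KRTAP4-8 // KRTAP4-11 (0.45) and IL1B (0.54). The KRTAP rows each join near-identical keratin-associated genes, so that their reads are uncertain. Each of the 5 had its lowest si-CTRL value in replicate 2, as BCL2A1 did, which the measure itself favors since it covers the si-CTRL libraries. For IL1B, an inflammatory cytokine, these values were 3773, 3031 and 3413 normalized counts in si-CTRL and 271.7, 300.04 and 303.01 in si-NEK2 libraries. For ESM1, a proteoglycan secreted by endothelial and tumor cells, they were 19467, 17217 and 23825 in si-CTRL and 1359, 1460 and 1548 in si-NEK2 libraries. Of the other 9 genes of the family, BCL2 came nearest to BCL2A1 at rank 399, followed by BAK1 at rank 549, and BCL2L11 was farthest at rank 12503.

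MCL1, a short-lived guard that holds BAK1 and binds PMAIP1 and BCL2L11, was the most abundant of the 10 genes. MCL1 (GSHG0133813, chromosome 1 from 150547027 to 150552214, hg19) had 56579, 61928 and 68032 normalized counts in si-CTRL and 42109, 44130 and 42839 in si-NEK2 libraries. The groups lay apart, and 69.2% of the mean remained. The log2 fold change was -0.53 (SE 0.08, limma adjusted p = 0.000767), which is less than 1.5-fold. MCL1 passed both thresholds without si-CTRL replicate 1 (-0.59) and when libraries were scaled by upper quartile (-0.59), to equal totals (-0.66) or by quantiles (-0.72).

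BCL2, the founding member of the family, fell from 822.4, 797.1 and 881.3 normalized counts in si-CTRL to 376.4, 357 and 346.8 in si-NEK2 libraries. BCL2 (GSHG0014341, chromosome 18 from 60790579 to 60987361, hg19) thus kept 43.2% of its mean, with a log2 fold change of -1.21 (SE 0.09, limma adjusted p = 2.76e-05). Each si-NEK2 library lay far below each si-CTRL library, and the spread within the groups was small.

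BCL2L1, which codes for BCL-xL, was the anti-apoptotic gene that was not lower. BCL2L1 (GSHG0019100, chromosome 20 from 30252256 to 30311802, hg19) had 5053, 4908 and 5122 normalized counts in si-CTRL and 5394, 5873 and 6251 in si-NEK2 libraries. The groups did not overlap, but the gap was narrow. The log2 fold change of 0.21 (SE 0.07, limma adjusted p = 0.0393) was under 1.5-fold. The adjusted p ranged from 0.0195 to 0.37 over the alternatives and was above 0.05 without si-CTRL replicate 2, si-CTRL replicate 3, si-NEK2 replicate 2 or si-NEK2 replicate 3, and 0.0747 with the replicate number as a block. It was also above 0.05 with each of the 3 other scalings, with no filter on low values and with no trend in the variance. The file has 1 value per gene, so that BCL-xL and the shorter pro-apoptotic splice form were not told apart, and this holds for the splice forms of MCL1 and BCL2L11 too.

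Per length, MCL1 made up most of the anti-apoptotic transcript in both groups. Levels were divided by the length of the longest protein-coding transcript in GENCODE 29, which is 1033 bases for BCL2A1, 2610 for BCL2L1, 3932 for MCL1 and 7461 for BCL2. MCL1 held 83.1% ± 2.13 (SD, n = 3) of the summed level per length of the 4 genes in si-CTRL and 82.4% ± 0.918 (SD, n = 3) in si-NEK2 cells. BCL2A1 held 6.14% ± 1.71 in si-CTRL and 0.439% ± 0.0326 in si-NEK2 cells (SD, n = 3 each). BCL2L1 went from 10.2% ± 0.693 to 16.8% ± 0.949 and BCL2 from 0.589% ± 0.0263 to 0.364% ± 0.0244 (SD, n = 3 each). Leaving MCL1 aside, BCL2A1 was 35.9% ± 6.2 of the other 3 genes in si-CTRL and 2.5% ± 0.254 in si-NEK2 cells, where BCL2L1 was 95.4% ± 0.411 (SD, n = 3 each). Shares depend on the other genes of the sum, among them BCL2A1, which was chosen for its low si-NEK2 counts. The level of BCL2L1 itself went from 1926 ± 42 to 2237 ± 165 normalized counts per kb (SD, n = 3 each). The sum of the 4 genes went from 19017 ± 1498 to 13287 ± 364 (SD, n = 3 each).

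**Figure D2:**
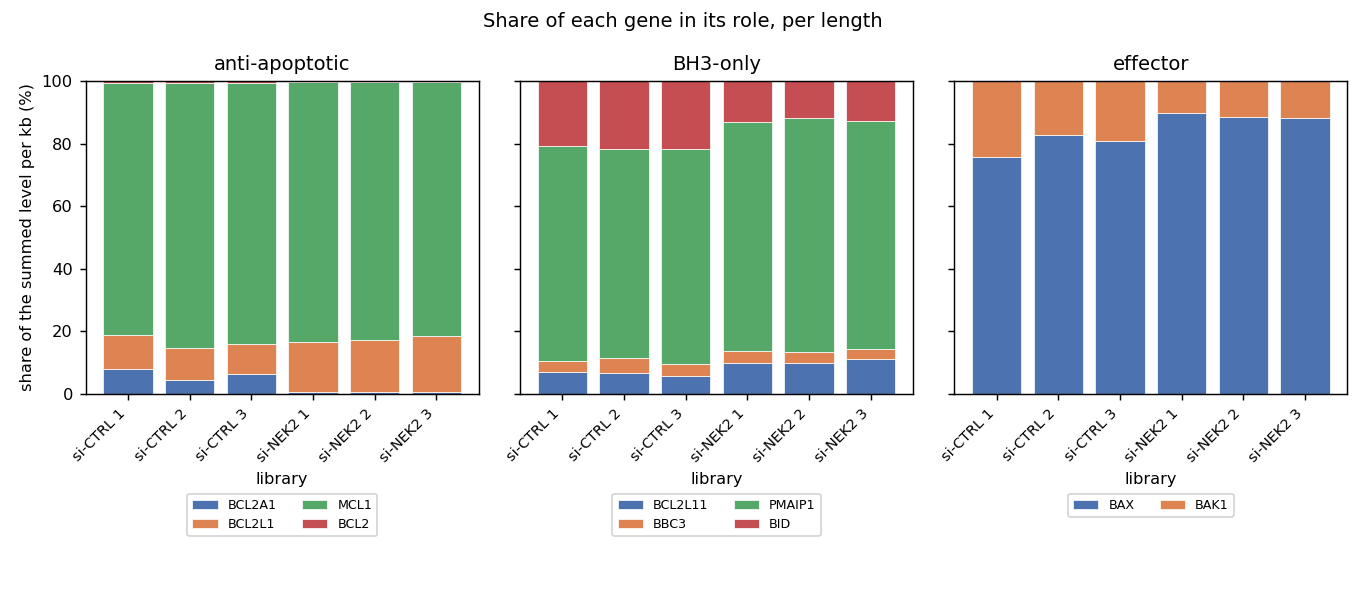
Share of each gene (% of the summed level per kb of transcript) among the anti-apoptotic, BH3-only and effector genes in each of the 6 libraries. The BCL2A1 share is 6.14% on average in si-CTRL and 0.439% in si-NEK2 libraries, and the BAK1 share of the effectors is 20.2% and 11.2%, or 32.5% and 19.3% with exon union lengths.

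Of the BH3-only genes, BCL2L11 rose, BID fell, and BBC3 and PMAIP1 did not pass either threshold on the adjusted p or the fold change. BCL2L11 codes for BIM, which binds all anti-apoptotic members and can engage the effectors. BCL2L11 (GSHG0016771, chromosome 2 from 111878491 to 111926022, hg19) had 1602, 1643 and 1509 normalized counts in si-CTRL and 2761, 2716 and 2888 in si-NEK2 libraries. The si-NEK2 libraries lay above each si-CTRL library, with a mean of 176% of the control. The log2 fold change was 0.82 (SE 0.07, limma adjusted p = 5.52e-05).

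BID, which caspase 8 cleaves to link death receptors to mitochondria, moved in the opposite direction. BID (GSHG0020167, chromosome 22 from 18216906 to 18257431, hg19) had 2355, 2614 and 2834 normalized counts in si-CTRL and 1777, 1566 and 1584 in si-NEK2 libraries. The groups did not overlap, and the log2 fold change was -0.66 (SE 0.09, limma adjusted p = 0.000573). Leaving out each library in turn gave between -0.73 and -0.60, so that BID stayed just past 1.5-fold.

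PMAIP1, which codes for NOXA, a partner of MCL1 and BCL2A1, had 6043, 6241 and 6984 normalized counts in si-CTRL and 7633, 7650 and 7006 in si-NEK2 libraries. The nearest libraries of the 2 groups almost touched. The log2 fold change of PMAIP1 was 0.21 (SE 0.08, limma adjusted p = 0.0501, 95% interval from 0.04 to 0.38). The adjusted p lay between 0.0254 and 0.401 over the alternatives and was under 0.05 in 4 of them, namely when si-CTRL replicate 1 (0.0493) or replicate 3 (0.0254) was left out, with a mean of at least 50 (0.0445) and with a pseudocount of 5 (0.0491). BBC3, which codes for PUMA, had 307.5, 411.6 and 386.9 normalized counts in si-CTRL and 383.8, 320.8 and 267.8 in si-NEK2 libraries. The groups of BBC3 overlapped, and the log2 fold change of -0.19 (SE 0.16, limma adjusted p = 0.378) had a 95% interval from -0.56 to 0.18.

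Per length, PMAIP1 held 68.1% ± 1.02 of the 4 BH3-only genes in si-CTRL and 73.6% ± 1.06 in si-NEK2 cells (SD, n = 3 each). BID went from 21.5% ± 0.543 to 12.7% ± 0.672 and BCL2L11 from 6.29% ± 0.668 to 10.3% ± 0.773 (SD, n = 3 each). The summed level per length of the BH3-only genes was 0.255 ± 0.00318 times that of the anti-apoptotic genes in si-CTRL and 0.39 ± 0.0246 times in si-NEK2 cells (SD, n = 3 each). These sums rest mostly on PMAIP1 and MCL1. The anti-apoptotic sum also holds BCL2A1, chosen for its low si-NEK2 counts, so part of the shift follows from that choice. The BH3-only sum itself overlapped between groups, from 4519 to 5220 normalized counts per kb in si-CTRL and from 4930 to 5367 in si-NEK2 libraries. For the effectors this ratio was 0.197 ± 0.0371 in si-CTRL and 0.239 ± 0.0115 in si-NEK2 cells (SD, n = 3 each), with groups that overlapped.

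The effectors differed from each other. BAK1, which sits in the outer mitochondrial membrane, fell from 1590, 1675 and 1637 normalized counts in si-CTRL to 722.6, 832.3 and 788.5 in si-NEK2 libraries. BAK1 (GSHG0026522, chromosome 6 from 33540324 to 33548070, hg19) kept 47.8% of its mean, and each si-NEK2 library lay well below each si-CTRL library. Its log2 fold change was -1.07 (SE 0.08, limma adjusted p = 3.36e-05).

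BAX, which moves from the cytosol to mitochondria upon activation, had 3015, 4949 and 4262 normalized counts in si-CTRL and 3935, 3886 and 3651 in si-NEK2 libraries. The si-NEK2 values of BAX lay within the spread of the si-CTRL values, of which replicate 1 was the lowest. The log2 fold change was -0.06 (SE 0.16, limma adjusted p = 0.775, 95% interval from -0.42 to 0.29). It was -0.26 without si-CTRL replicate 1 (limma adjusted p = 0.0106), which is under 1.5-fold, and 0.093 without si-CTRL replicate 2. The span of BAX (GSHG0015083, chromosome 19 from 49458117 to 49465054, hg19) lies within that of the FTL row, a far more abundant gene with 141927 ± 25974 normalized counts in si-CTRL (SD, n = 3), and how reads in the shared span were assigned is not given in the sources used here. BAX held 79.8% ± 3.77 of the level per length of the 2 effectors in si-CTRL and 88.8% ± 0.886 in si-NEK2 cells (SD, n = 3 each). With lengths from the union of exons, the share of BAX was 67.5% and 80.7%, and that of BAK1 was 32.5% and 19.3% in place of 20.2% and 11.2%.

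Ordered by level per length, the 10 genes ran in si-CTRL from MCL1 through PMAIP1, BAX, BCL2L1, BCL2A1, BID, BAK1, BCL2L11 and BBC3 to BCL2. PMAIP1 and BAX overlapped in this order, as did BCL2A1 and BID. In si-NEK2 cells BCL2A1 stood at rank 9, with 58.4 ± 5.53 normalized counts per kb (SD, n = 3), just above BCL2 with 48.3 ± 2.02 (SD, n = 3). The order depended on the length used, since with the union of exons BAK1 stood above BID in si-CTRL, and BCL2L1 above BAX and BCL2L11 above BID in si-NEK2 cells.

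**Figure D3:**
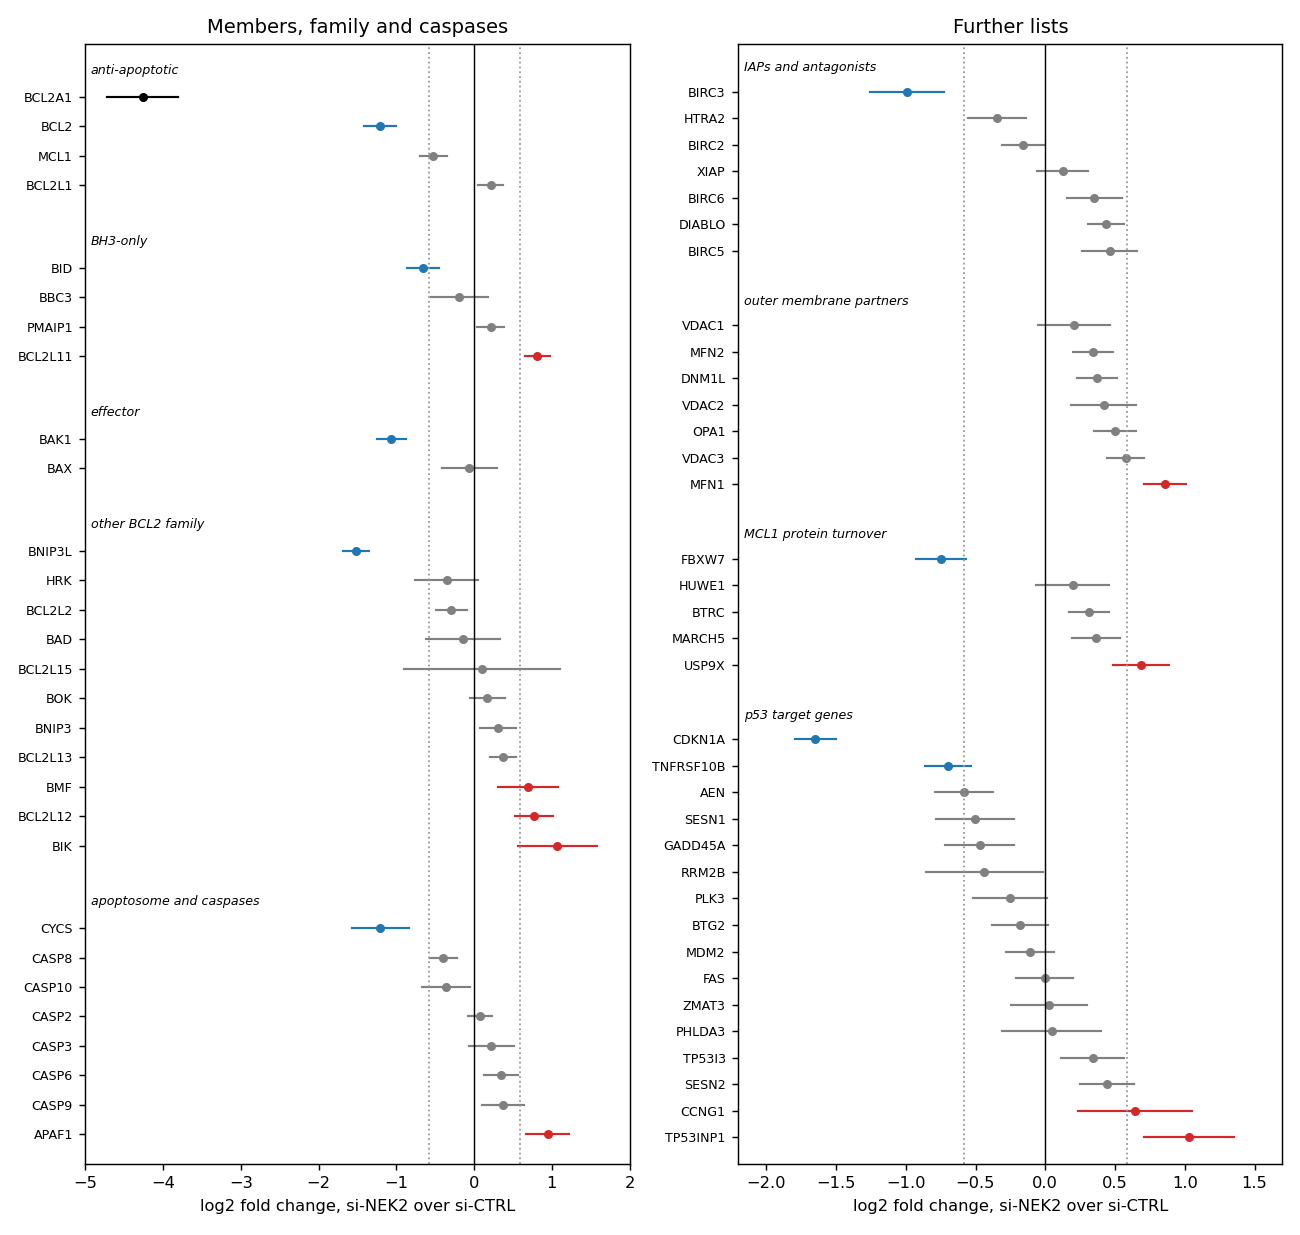
Log2 fold change of si-NEK2 over si-CTRL with its 95% interval (limma) for the 10 genes and the tested genes of 6 further lists. Blue marks genes that fell and red those that rose past both thresholds, grey those that did not pass, black BCL2A1, which was chosen for its change, and dotted lines a fold change of 1.5.

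The rest of the pathway was read from 6 lists with 57 genes, of which 54 were tested and 14 regulated, 8 higher and 6 lower. This is 14 of 54 genes, beside 22.5% of all genes. On the adjusted p alone, 36 of the 54 passed, 24 higher and 12 lower, where 43.1% of all genes passed.

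Of the 13 other genes of the BCL2 family, 11 were tested, 3 rose and 1 fell, and the median of the list was 0.17 on the log2 scale. The BH3-only genes BIK (log2 fold change 1.07, SE 0.22) and BMF (0.69, SE 0.17) rose, with adjusted p of 0.00471 and 0.0107 in limma. BIK had 102.5, 176.3 and 159.7 normalized counts in si-CTRL and 344.5, 327.2 and 240.1 in si-NEK2 libraries. BMF did not reach 1.5-fold without si-CTRL replicate 3 (0.58) or with equal total scaling (0.56). BCL2L12 also rose (0.77, SE 0.11), and BNIP3L, a receptor that marks mitochondria for autophagy, fell from 1974 ± 39.9 to 687.6 ± 22.8 normalized counts (SD, n = 3 each, log2 fold change -1.52). BCL2L10 and BCL2L14 had at most 1.9 normalized counts in any library. BCL2L2 shares its row with PABPN1, so that its reads are uncertain.

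Of the 8 apoptosome and caspase genes, APAF1 rose and CYCS fell past both thresholds. APAF1, the scaffold of the apoptosome, went from 2735 ± 470 to 5222 ± 335 normalized counts (SD, n = 3 each, log2 fold change 0.95, limma adjusted p = 0.00043). CYCS, which codes for cytochrome c, had 18260, 28162 and 30215 normalized counts in si-CTRL and 11087, 10802 and 10580 in si-NEK2 libraries (log2 fold change -1.21, limma adjusted p = 0.000531). CYCS has many processed pseudogenes, so that its reads are uncertain. The initiator caspase CASP8 was lower by less than 1.5-fold (-0.39, limma adjusted p = 0.00305).

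Of the 8 inhibitors of apoptosis and their antagonists, 7 were tested and BIRC3 fell. BIRC3, an inhibitor of apoptosis that NF-kB induces, had 3055, 2251 and 2448 normalized counts in si-CTRL and 1202, 1395 and 1278 in si-NEK2 libraries (log2 fold change -0.99, limma adjusted p = 0.000269). XIAP, the direct caspase inhibitor, had a log2 fold change of 0.13 (limma adjusted p = 0.243). DIABLO, which displaces these inhibitors, shares its row with VPS33A.

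The 7 genes of the outer mitochondrial membrane and of mitochondrial fission and fusion had log2 fold changes above 0 under each of the 17 alternatives, with a median of 0.42. All but VDAC1, that is 6 of them, were higher on the adjusted p alone, and MFN1, a fusion GTPase, passed both thresholds (4362 ± 221 against 7906 ± 215 normalized counts, SD, n = 3 each, log2 fold change 0.86). The background of such genes was the 21.8% given above. The same rule called 5 of 11 other family genes higher and 2 lower. For the apoptosome and caspases these counts were 3 and 2 of 8, and for the inhibitors of apoptosis 3 and 2 of 7. For the MCL1 stability genes they were 3 and 1 of 5, and for the p53 targets below 4 and 5 of 16.

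Of the 5 genes that act on the stability of the MCL1 protein, 1 rose and 1 fell. FBXW7, part of a ubiquitin ligase that marks MCL1 for degradation, fell (-0.75, SE 0.08, limma adjusted p = 0.000147), and USP9X, which removes ubiquitin from MCL1, rose (0.68, SE 0.09, limma adjusted p = 0.000412). USP9X did not reach 1.5-fold with equal total scaling (0.56).

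BBC3, PMAIP1 and BAX are textbook targets of p53, which is mutated in MDA-MB-231 cells. Of 16 other p53 target genes, 2 fell and 2 rose, and the median of the list was -0.15 on the log2 scale. This split was not stable. Without si-CTRL replicate 1, SESN1, RRM2B and AEN also fell past both thresholds, and with equal total scaling GADD45A, SESN1 and AEN did. CDKN1A, the inhibitor of cyclin-dependent kinases, fell from 6000, 5526 and 5967 to 1881, 1846 and 1850 normalized counts (log2 fold change -1.65, limma adjusted p = 2.39e-06), and the death receptor TNFRSF10B fell (-0.70). TP53INP1 rose (1.03), as did CCNG1 (0.64), which did not reach 1.5-fold without si-CTRL replicate 1 (0.40) or with upper quartile (0.58), quantile (0.54) or equal total scaling (0.51).

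**Figure D4:**
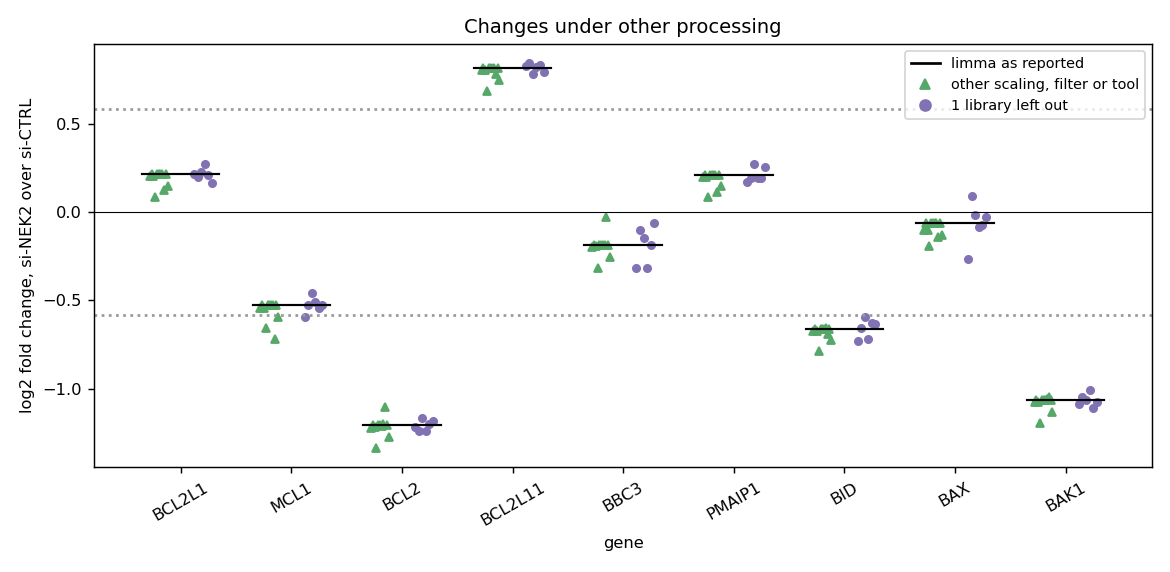
Log2 fold change of 9 of the 10 genes (without BCL2A1) as reported (line), with other scaling, filters or tools (triangles) and with each library left out (circles); dotted lines mark a fold change of 1.5. MCL1 lies at the threshold, between -0.72 and -0.46, and BAX lies on both sides of 0, whereas BCL2, BAK1, BID and BCL2L11 stay past the threshold.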

How the data were processed

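PolyA RNA was sequenced with a strand-specific kit, in 3 libraries per group. The authors deposited 1 signal per gene and library, the read count divided by the DESeq2 size factor, with FAST DB annotation on hg19 and replicates not pooled. Per the labels the submitters' processing notes name STAR 2.4.0 and DESeq2; the counter and strand setting are not given in the sources used here, so overlapping genes may share reads. In each library, 100% of the signals were whole multiples of 1 read within 0.01 reads, so that reads could be recovered.

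Genes whose mean reached 10 normalized counts were tested with limma 3.58.1 (R 4.3.3; lmFit, eBayes with trend, two-sided, Benjamini-Hochberg adjustment) on log2(value + 1), a scale that understates changes of low genes. Groups came from the sample titles. Nothing states separate cultures beyond triplicates, so p-values measure the spread between these libraries. The thresholds are those of the paper. The alternatives were edgeR 4.0.16 and DESeq2 1.42.0 on recovered reads (which called 22.5% and 21.6% of genes), pseudocounts, filters, scalings, a replicate block and each library left out. On simulated data with 200 of 18546 genes changed 3-fold, limma recovered 97.5%. The simulation gave every gene the same dispersion and had no library that stood apart. Smaller changes were not simulated, so this rate does not carry over to the calls above.

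The members and lists were chosen with earlier results of these data known. The text names all members, the genes most like BCL2A1 and its neighbours, and up to 4 regulated genes per list. Other list genes, named for their role, for sharing a row or for passing only under an alternative, were singled out after their values were seen. So were the leukocyte markers ITGAM and NCAM1. A few list genes are not reported here and were left out of the list counts and sums. Lengths are from GENCODE 29 and were matched by symbol.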

Additional observations from a re-analysis of the deposited data

How the results depend on the processing

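NEK2 and 7 of the 9 genes of the family other than BCL2A1 kept their direction and their call (regulated or not) under 11 alternatives and with each of the 6 libraries left out; the exceptions were MCL1, which passed in 4 of these fits, and BAX, whose log2 fold change ran from -0.26 without si-CTRL replicate 1 to 0.093, with the sign changed, without si-CTRL replicate 2. The cause was not tested. The log2 fold change of NEK2 was from -3.42 to -3.19 with each library left out. Of the 9 genes, a count chosen after the data were seen, the 4 regulated became 2 with a fold change of at least 2, which removes BCL2L11 and BID by construction, and were from 4 to 5 with each library left out (5 without si-CTRL replicate 1). With an adjusted p alone, 6 of the 9 became from 5 to 8 with each library left out, 8 being reached without si-CTRL replicate 1, where PMAIP1 and BAX joined. With BCL2A1, which was chosen for its change, added as a description, these counts over all 10 genes were 5, 3 and from 5 to 6, and 7 and from 6 to 9. Of the 14 regulated genes of the 6 lists, 5 remained with a fold change of at least 2, and from 14 to 16 were counted with each library left out. With equal total scaling, which moved the median of all genes to -0.11, 5 were higher and 9 lower in place of 8 and 6. These counts were 7 and 9 without si-CTRL replicate 1, and 7 and 7 with upper quartile scaling.

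No pairing by replicate number was seen, as the deviations of libraries with the same number correlated at -0.091, 0.047 and -0.147. With 3 libraries per group, such correlations cannot exclude a shared preparation. With the replicate number as a block, 4 of the 9 genes of the family and 14 of the lists were regulated and 5 of the 9, in place of 6, had an adjusted p of at most 0.05; over all 10 genes these counts were 5 and 6.

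With lengths from the union of exons, an alternative added after the data were seen, the share of BCL2A1 was 6.54% in si-CTRL and 0.473% in si-NEK2 cells, and that of BAK1 was 32.5% and 19.3%. At 54 to 74 reads of BCL2A1 in si-NEK2 libraries, counting error limits its share there.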
